A study of Mus musculus with 28 samples.

Results

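The comparison is between 2 kinds of dendritic cell sort from the medulla (the inner kidney) of mouse kidney allografts 3 days after transplantation: cells that came with the graft and cells of the recipient. Its members are 6 of the 28 arrays of the series, found by their labels: 3 arrays of graft-origin cells, sorted as CD45.2+ CD11c+ MHCII+ and labelled BALB/c, and 3 arrays of host cells, sorted as CD45.1+ CD11c+ MHCII+ and labelled C57BL/6. CD45.1 and CD45.2 are allelic forms of the leukocyte surface protein CD45, so that the antibody tells recipient from graft cells. The arrays of both kinds carry mouse numbers 6, 7 and 8, so each graft gave 1 array of each, and they are called grafts 1, 2 and 3 here. Also used were 6 arrays of the same 2 kinds of cells from the cortex (the outer kidney) of these grafts, and 8 arrays of medullary cells from healthy, homeostatic kidneys, 4 of C57BL/6 and 4 of BALB/c mice, sorted by CD45, CD11c and MHCII. The sources used here do not state age, sex, how many cells were sorted or how recipients were treated. Origin and strain cannot be told apart in the grafts, because graft-origin cells were BALB/c and host cells C57BL/6; the strain difference in homeostatic medulla is therefore given beside the results.

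Dendritic cells take up antigen and present its peptides to T cells on MHC class II molecules, and in the kidney they form a network around the tubules that overlaps in surface markers (CD11c, MHC class II, Cx3cr1, Adgre1) with resident macrophages. Resident cells travel with a transplanted kidney, while monocytes and dendritic cells of the recipient enter it from the blood. Resident macrophages are known for C1q production, scavenger receptors and dependence on the growth factor receptor Csf1r.

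In graft medulla, 85 of 14325 genes differed between graft-origin and host cells, 60 higher in graft-origin and 25 higher in host cells. The balance changed without arrays of graft 3: without its host array 49 genes were higher in graft-origin and 57 in host cells, and without both its medulla arrays 34 and 32. The genes higher in graft-origin cells included the mannose receptor Mrc1 (5.23 ± 0.38, log2 difference ± SE, from a host signal below the 40th percentile of the arrays, and at least 4.63 against that percentile) and many genes of macrophages: the complement genes C1qa, C1qc, C3ar1 and C5ar1, the scavenger receptor Msr1, Adgre1, Csf1r, Cx3cr1, Apoe and Lyz2. Leukocyte genes such as Cd52, Lcp1 and Laptm5 and the MHC class II genes Cd74 and H2-Eb1 were also higher. Those higher in host cells had smaller differences (median -1.47 against 2.92) and included the water channel Aqp4 and the glycolytic enzyme Pfkl. Differences are graft-origin minus host throughout, from limma on log2 array signal with adjustment by Benjamini and Hochberg over all genes, and a gene passed when its adjusted p was under 0.05.

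Before the results, the labels were set against marker genes. Ptprc, which encodes CD45, read 11.30, 10.96 and 11.42 (log2 array signal, grafts 1 to 3) in graft-origin cells and 10.93, 9.11 and 8.97 in host cells. Itgax, which encodes the sort marker CD11c, read 7.25, 7.59 and 7.30 against 7.52, 7.29 and 8.16, close to the 40th percentile of these arrays (7.35 to 7.53). Homeostatic medulla had Itgax at 11.09 ± 0.21 (SD, n = 4) in C57BL/6 and 8.43 ± 0.97 (SD, n = 4) in BALB/c cells. Itgax RNA was thus low in all 6 arrays of graft medulla. Of the 7 pan dendritic cell genes measured, the mean per array was 7.27 to 7.40 in graft-origin and 7.38 to 8.06 in host cells, against 9.48 to 9.94 in homeostatic C57BL/6 and 7.57 to 8.16 in homeostatic BALB/c medulla. Flt3, the growth factor receptor of dendritic cells, read 7.17 to 7.40 in graft-origin and 7.11 to 8.26 in host cells. Pan dendritic cell means were therefore below C57BL/6 medulla in both kinds of cells, while those of host cells overlapped BALB/c medulla. Over 9 type 1 dendritic cell genes the mean was 8.06 to 8.53 in graft-origin and 8.00 to 8.35 in host cells. Homeostatic medulla had 9.66 to 10.06 in C57BL/6 and 9.17 to 9.82 in BALB/c cells. The arrays are called by their labelled origin rather than by a cell type.

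The arrays also differed in leukocyte and epithelial RNA. Over 25 leukocyte-wide genes the mean level per array was 10.06, 9.28 and 10.66 in graft-origin cells and 9.30, 8.17 and 8.53 in host cells, against 11.44 to 11.51 in homeostatic C57BL/6 and 10.90 to 11.11 in homeostatic BALB/c medulla. Over 16 epithelium-wide genes it was 9.81, 9.84 and 9.66 in graft-origin and 10.11, 10.03 and 9.77 in host cells, against 7.77 to 7.96 and 8.25 to 8.82 in the homeostatic groups. Umod, the most abundant protein of the thick ascending limb of the loop of Henle, read 13.32 to 13.60 in the 3 graft-origin arrays and 13.44 to 13.62 in the 3 host arrays, with homeostatic means of 11.49 ± 2.36 (SD, n = 4) in BALB/c and 10.80 ± 2.30 (SD, n = 4) in C57BL/6 medulla. Epithelium-wide RNA was thus above homeostatic levels in all 6 arrays, and the host arrays had less leukocyte RNA within each graft. The part of these levels in the results below was not tested. In such bulk samples fewer cells of a type and less RNA per cell cannot be told apart.

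The strain labels were set against H2-Ea and Ifi202b. H2-Ea, an MHC class II chain that C57BL/6 mice do not express, read 12.72 and 12.37 in graft-origin cells of grafts 1 and 2 and a higher value in graft 3 (mean 12.70 ± 0.32, SD, n = 3), and 9.63, 9.41 and 6.45 in host cells. Homeostatic medulla had 12.94 to 13.30 in BALB/c cells, a range that holds the graft-origin array of graft 3, and 6.25 to 6.46 in C57BL/6 cells. Host cells of the graft cortex had 10.18, 11.78 and 11.18. Graft-origin cells thus lay near the BALB/c level, the host array of graft 3 at the C57BL/6 level, and the host arrays of grafts 1 and 2 about 3 log2 units above it. Ifi202b, an interferon-inducible gene, read 10.04, 7.86 and 8.94 in graft-origin cells and 5.72, 5.22 and 5.48 in host cells, with 8.24 to 9.74 in BALB/c and 5.19 to 5.25 in C57BL/6 medulla, so that all 3 host arrays were near the C57BL/6 level. By a further 5 genes that were over 1.5 log2 units higher in every C57BL/6 than in every BALB/c array of both homeostatic regions (H2-Ob, Ly6e, Nlrp1c-ps, Slamf7, Trim12a, chosen after values were seen), the graft-origin arrays all lay on the BALB/c side of the midpoint. All 5 are higher in C57BL/6 cells, so an array with little signal lies on the BALB/c side whatever its strain. These 5 genes therefore cannot check the graft-origin label. H2-Ea and Ifi202b are higher in BALB/c cells, so an array with little signal lies on the C57BL/6 side whatever its strain. Low values of these genes therefore cannot check the host label. Ifi202b lay below the 40th percentile in all 3 host arrays, and the H2-Ea values 9.63 and 9.41 lay close to its midpoint of 9.76. Host arrays lay on the C57BL/6 side in 1 of 3 for Ly6e and Trim12a, in 3 of 3 for H2-Ea and Ifi202b and in 0 of 3 for the other 3 genes, where 8 of 9 host values were 7.53 or less. H2-Ob was 9.53 in the host array of graft 3. The source of the H2-Ea signal in host arrays was not tested, and the counts below are also given without those of grafts 1 and 2.

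**Figure D1:**
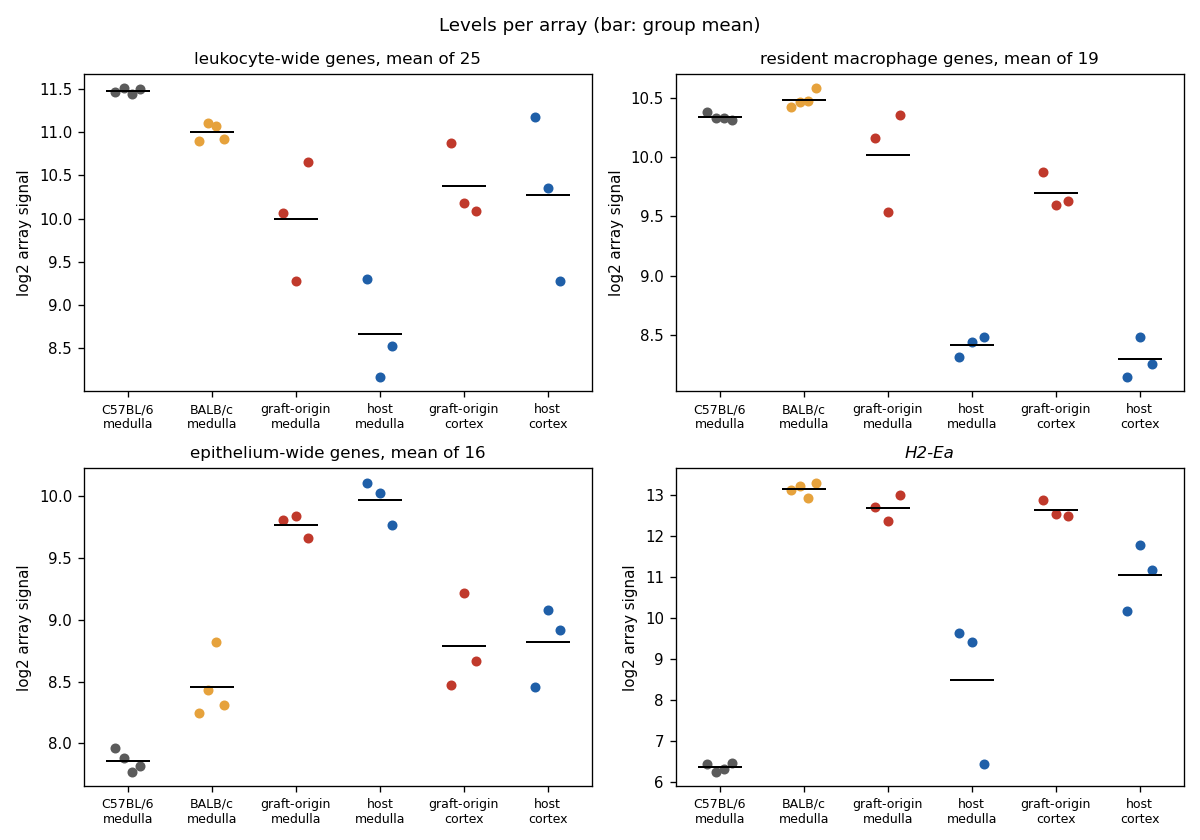
Log2 array signal in 6 groups (x axis), 1 point per array and a bar at the group mean: the mean over leukocyte-wide, resident macrophage and epithelium-wide genes, and H2-Ea alone. The 3 host arrays of graft medulla lie at 8.17 to 9.30 for leukocyte-wide and 8.32 to 8.49 for macrophage genes, while graft-origin cells of the same grafts lie at 9.28 to 10.66 and 9.54 to 10.35.

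Across all genes the 2 kinds of cells had a median difference of -0.01, and 48.2% of the genes were above 0. The 85 genes that passed were 0.593% of those tested, with 0.419% higher in graft-origin and 0.175% higher in host cells, and 876 genes had an unadjusted p under 0.05. The values of the 3 graft-origin arrays did not overlap those of the 3 host arrays for 60 of 60 and 24 of 25 genes, where 4.03% and 4.29% of all genes had no overlap in the same direction. As the genes were chosen by a test of these arrays, this count and the sign within grafts describe them and add no support. The exception was Cacng7, with 8.08 in the graft-origin and 8.03 in the host array of graft 3, and its call was lost in 11 of 21 alternatives. All 60 genes were higher in graft-origin cells within each of the 3 grafts. The median of their differences was 2.75 in graft 1, 2.06 in graft 2 and 3.71 in graft 3, and 40 of the 60 had their largest difference in graft 3. With the graft as a fixed block in the fit of all arrays, 66 genes passed, 54 higher in graft-origin and 12 in host cells. Fitted on these 6 arrays alone, 1 gene passed without the block (4 residual degrees of freedom) and 0 with it (2 residual degrees of freedom, 968 at an unadjusted p under 0.05), so the calls rest on the spread shared over 28 arrays. Those 28 arrays hold groups that varied less. The SD of the leukocyte-wide mean level was 0.69 in graft-origin and 0.58 in host cells of graft medulla. It was 0.44 and 0.95 in graft cortex, but 0.03 in C57BL/6 and 0.10 in BALB/c homeostatic medulla. For genes that vary more in these 6 arrays than in the other groups, the SE and adjusted p given can be too small. The count was 50 (38 higher in graft-origin, 12 in host cells) without the graft-origin array of graft 1, 53 (41 and 12) without that of graft 3, 134 (86 and 48) without that of graft 2, 106 (49 and 57) without the host array of graft 3, and 143 (67 and 76) without the host arrays of grafts 1 and 2, which leaves 1 host array that is assumed to vary like the other groups. Of the 85 genes, 39 were among those 143.

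**Figure D2:**
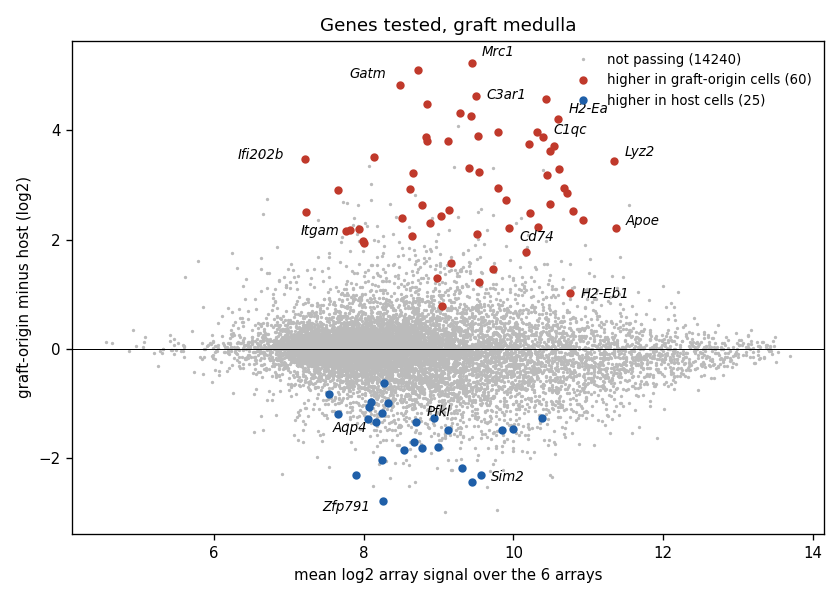
Difference between graft-origin and host cells of graft medulla (y axis, log2) against the mean log2 array signal over the 6 arrays (x axis) for 14325 genes. The 60 genes that passed above 0 reach 5.23, and the 25 that passed below 0 reach -2.79.

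The 60 genes had a median level of 11.07 in graft-origin and 7.90 in host cells. In homeostatic medulla their median was 11.99 in BALB/c and 12.23 in C57BL/6 cells. For these 60 genes graft-origin cells lay about 1 log2 unit below the homeostatic levels of both strains, and host cells over 4 units below that of their own strain. Over all genes tested the mean level was 8.48 in graft-origin and 8.50 in host cells, and 8.44 and 8.46 in homeostatic BALB/c and C57BL/6 medulla. As the 60 genes, and the 25 below, were chosen by a test of these arrays, their medians describe them and add no support. All 60 were above the 40th percentile in all 3 graft-origin arrays, and 14 of them were below it in all 3 host arrays. For these 14 the size of a difference depends on a dim signal, so each one named below is also given as a limit, "at least", with the 40th percentile of the arrays in place of the host values. The 25 genes higher in host cells had a median level of 9.45 there and 7.83 in graft-origin cells, against 7.60 and 7.54 in homeostatic BALB/c and C57BL/6 medulla. Abhd4, Kctd10 and Lrrc1 were the 3 of them below the 40th percentile in all 3 graft-origin arrays.

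The letters before the start sites of some of these genes are shown because genes of macrophages are widely known to carry sites for the transcription factor PU.1, whose core reads GAGGAA. Where a site lies on the opposite strand of the DNA, the printed letters are TTCCTC. Of the 60 genes higher in graft-origin cells, 42 matched a RefSeq start (GRCm38.p6), and 24 of these (57.1%) held the core on either strand in the 250 bases before a start, against 7 of 22 (31.8%) for genes higher in host cells and 25.9% of 27025 genes in all. Shown are C1qc, Cd72, Mrc1 and Itgam, which hold it, and C3ar1, which does not, 5′ to 3′ in the direction of the gene with the core in capitals.
C1qc, chr4:136892915-136893164, minus strand: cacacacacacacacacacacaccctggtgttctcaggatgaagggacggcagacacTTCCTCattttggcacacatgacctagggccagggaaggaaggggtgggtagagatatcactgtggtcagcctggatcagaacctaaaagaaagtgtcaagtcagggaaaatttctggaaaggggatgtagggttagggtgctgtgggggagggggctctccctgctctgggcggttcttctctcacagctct
Cd72, chr4:43454627-43454876, minus strand: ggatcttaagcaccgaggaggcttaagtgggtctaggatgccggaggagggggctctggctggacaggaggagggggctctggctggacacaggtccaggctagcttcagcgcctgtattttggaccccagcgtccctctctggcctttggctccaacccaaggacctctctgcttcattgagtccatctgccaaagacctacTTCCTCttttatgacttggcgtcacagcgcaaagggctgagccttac
Mrc1, chr2:14229164-14229413, plus strand: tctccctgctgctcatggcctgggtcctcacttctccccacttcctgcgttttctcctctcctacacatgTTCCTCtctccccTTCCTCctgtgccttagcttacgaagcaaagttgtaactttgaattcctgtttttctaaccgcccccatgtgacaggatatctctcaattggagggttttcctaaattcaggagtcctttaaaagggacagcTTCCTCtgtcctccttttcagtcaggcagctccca
Itgam, chr7:128062390-128062639, plus strand: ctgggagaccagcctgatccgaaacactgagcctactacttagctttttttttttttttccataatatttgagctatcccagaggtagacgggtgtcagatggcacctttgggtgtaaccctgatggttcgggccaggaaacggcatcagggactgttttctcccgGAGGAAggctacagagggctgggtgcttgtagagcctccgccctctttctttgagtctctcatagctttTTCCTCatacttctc
C3ar1, chr6:122856158-122856407, minus strand: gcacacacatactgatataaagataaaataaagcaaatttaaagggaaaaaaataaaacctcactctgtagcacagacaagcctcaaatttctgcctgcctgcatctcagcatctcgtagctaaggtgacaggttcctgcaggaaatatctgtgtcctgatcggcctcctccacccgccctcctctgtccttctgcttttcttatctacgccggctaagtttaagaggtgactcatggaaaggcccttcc
A match is a run of letters and not a measured site, and no test was made of these shares. C1qc and Cd72 have 1 match each, Itgam 2 and Mrc1 3.

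Of 18 resident macrophage genes tested, 7 were higher in graft-origin cells and 0 in host cells, with a median of 1.60 over the list. Over all 14325 genes, 0.419% were higher in graft-origin and 0.175% in host cells, with a median of -0.01 and 48.2% above 0. The same shares apply to the other list counts of graft medulla below. Mrc1, a receptor that takes up mannosylated glycoproteins, read 12.35, 11.59 and 12.24 in graft-origin cells and 6.72, 7.12 and 6.65 in host cells (5.23 ± 0.38, adjusted p = 7.0e-09 in limma). The host level lay below the 40th percentile of the arrays in all 3 grafts (at least 4.63), and the graft-origin level was close to that of homeostatic BALB/c medulla (12.56). Adgre1, an adhesion receptor long used as a surface marker of mouse macrophages, read 10.77, 9.78 and 11.76 against 6.48, 7.95 and 6.26 (3.87 ± 0.43, adjusted p = 1.0e-05). Csf1r, the receptor for the growth factors CSF-1 and IL-34, read 11.67, 10.87 and 11.79 against 9.18, 8.91 and 9.57 (2.23 ± 0.27, adjusted p = 3.5e-05). In each of these genes the graft-origin arrays were all above the host arrays, with graft 2 lowest among the graft-origin arrays. Cx3cr1, the fractalkine receptor, differed by 2.73 ± 0.31 (adjusted p = 1.5e-05) and Apoe, the lipid carrier, by 2.21 ± 0.23 (adjusted p = 2.6e-06). Apoe stayed high in host cells as well, at 10.15 to 10.32. The members that did not pass include C1qb (1.62 ± 0.47, adjusted p = 0.21), Cd68 (2.39 ± 0.68, adjusted p = 0.2) and Trem2 (0.31 ± 0.29), and Cd163, Timd4 and Lyve1 had differences of 0.15, 0.10 and 0.05. The count was again 7 without the host arrays of grafts 1 and 2, with a list median of 1.05.

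Complement genes had 4 of 11 members higher in graft-origin cells and 0 in host cells, with a median of 0.32. C1qc, a chain of the recognition molecule C1q, read 12.36, 11.66 and 13.01 in graft-origin cells and 8.79, 8.57 and 8.03 in host cells (3.88 ± 0.27, adjusted p = 3.6e-09). C1qa, another chain, differed by 3.23 ± 0.43 (adjusted p = 1.4e-04). The receptors for the complement fragments C3a and C5a were also higher. C3ar1 read 12.03, 10.96 and 12.45 against 6.84, 6.68 and 8.03 (4.63 ± 0.31, adjusted p = 3.6e-09), and C5ar1 read 8.11, 8.64 and 9.77 against 6.84, 6.60 and 6.58 (2.16 ± 0.49, at least 1.41, adjusted p = 0.041). The C5ar1 call was lost in 13 of 21 alternatives, among them no filter, a repeated quantile normalization, and leaving out any 1 host array, the graft-origin array of graft 2 or of graft 3, or any 1 graft. The list median was 0.16 without the graft-origin array of graft 1, 0.69 without that of graft 3, 0.91 without graft 3 and 1.89 with a stricter filter on dim genes. Without the host arrays of grafts 1 and 2, 3 members passed and the median was 0.09.

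Receptors for uptake and for antibody differed to unequal extents. Of 12 scavenger and phagocytic receptors, Mrc1 and Msr1 were higher and the list median was 1.00. All 12 differences were above 0, against 48.2% over all genes. Msr1, the class A scavenger receptor, read 11.32, 10.42 and 11.50 in graft-origin cells and 5.89, 6.15 and 7.76 in host cells (4.48 ± 0.62, adjusted p = 2.1e-04), and did not pass without the host arrays of grafts 1 and 2. Of 5 Fc receptor genes 0 passed in limma (4 at an unadjusted p under 0.05), with a median of 1.61, and Fcgr3 was nearest (1.61 ± 0.38, adjusted p = 0.058), at 9.05 to 10.37 against 8.01 to 8.05. Fcgr1 had a difference of 1.58 ± 0.39 (adjusted p = 0.085).

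Monocyte genes had 3 of 13 members higher in graft-origin cells: Lyz2 (lysozyme), Itgam (CD11b) and F13a1 (coagulation factor XIII). Lyz2 read 13.26, 12.30 and 13.64 against 10.74, 9.19 and 8.99 (3.43 ± 0.37, adjusted p = 7.1e-06). Itgam read 8.95, 8.35 and 9.43 against 6.54, 6.54 and 7.12 (2.18 ± 0.32, at least 1.49, adjusted p = 4.3e-04), and did not pass without the host arrays of grafts 1 and 2. F13a1 rested on 1 graft: it read 8.07, 8.04 and 10.79 against 6.97, 6.83 and 7.30 (1.94 ± 0.45, at least 1.54, adjusted p = 0.049), and its adjusted p was 0.078 with the graft as a fixed block in the fit of all arrays. Its call was lost in 11 of 20 alternatives, among them leaving out any 1 host array or the graft-origin array of graft 3. Ccr2, the receptor by which monocytes enter inflamed tissue, did not pass (1.55 ± 0.50, adjusted p = 0.34), and the list median was 0.16.

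Among leukocyte-wide genes 5 of 25 were higher in graft-origin cells and 0 in host cells: Cybb, Cd52, Lcp1, Laptm5 and Fyb. Cybb, the catalytic subunit of the phagocyte NADPH oxidase, read 12.57, 11.74 and 12.59 against 10.63, 6.88 and 7.49 (3.96 ± 0.77, adjusted p = 0.01). Lcp1, the actin bundler L-plastin, read 12.47, 11.39 and 12.91 against 9.45, 8.63 and 8.81 (3.29 ± 0.26, adjusted p = 3.7e-08). The list median was 1.16, and 22 of 25 members were above 0, against 48.2% over all genes. Within grafts the list median was 0.68, 0.82 and 1.90. Ptprc itself did not pass (1.56 ± 0.43, adjusted p = 0.15), though its 3 graft-origin values lay above the 3 host values. Without the host array of graft 1 its difference was 2.19 and it passed. The count of members that passed was 8 without that array, 3 without the host array of graft 2 or of graft 3, 3 without the graft-origin array of graft 1 or of graft 3, and 2 without graft 3, when the list median was 0.53. The calls of Cybb and Fyb were lost without the graft-origin array of graft 1 or of graft 3 and without the host array of graft 2 or of graft 3, and that of Laptm5 without graft 3.

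The MHC class II genes split. Of 10 tested, Cd74, H2-Eb1 and Ctss were higher in graft-origin cells, 0 in host cells, and the median was 0.76. Cd74, the invariant chain that guides class II molecules to the endosome, read 11.21, 10.08 and 11.87 against 8.83, 8.20 and 9.46 (2.22 ± 0.35, adjusted p = 0.0012). Ctss, the cathepsin that cleaves it, differed by 2.52 ± 0.37 (adjusted p = 4.1e-04). H2-Eb1, a class II beta chain, read 11.40, 10.73 and 11.70 against 10.45, 9.90 and 10.39 (1.03 ± 0.19, adjusted p = 0.0077). The alpha chain H2-Aa read 11.41, 10.29 and 12.03 against 11.11, 10.45 and 11.21, and the groups overlapped (0.32 ± 0.30). H2-Ab1 also overlapped, at 10.84, 9.81 and 11.66 against 10.92, 8.87 and 8.84 (1.23 ± 0.43, adjusted p = 0.39), and passed without the host array of graft 1 (1.92), when 5 members of the list passed. H2-Eb1 did not pass without the graft-origin array of graft 1 or of graft 3, without the host array of graft 2 or without graft 3. Neither H2-Eb1 nor Cd74 passed without the host arrays of grafts 1 and 2. The list median was 0.31 without graft 3. The 150 bases before the starts of H2-Eb1 and H2-Aa are shown because both hold the Y box TGATTGG of class II promoters, in capitals, while 1 gene passed and the other did not. Of all genes, 8.38% hold these letters on either strand in the 250 bases before a start, as do 3 of 42 genes (7.14%) higher in graft-origin and 3 of 22 (13.6%) higher in host cells.
H2-Eb1, chr17:34305717-34305866, plus strand: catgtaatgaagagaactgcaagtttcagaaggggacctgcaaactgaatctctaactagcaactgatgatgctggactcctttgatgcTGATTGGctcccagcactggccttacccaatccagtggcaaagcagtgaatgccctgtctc
H2-Aa, chr17:34287824-34287973, minus strand: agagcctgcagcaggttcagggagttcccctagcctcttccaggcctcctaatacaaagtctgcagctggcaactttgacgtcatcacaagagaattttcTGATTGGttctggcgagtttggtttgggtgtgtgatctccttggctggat

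Few genes of signals between cells passed. Of 18 cytokine and chemokine genes Ccl2, which attracts monocytes, was higher in graft-origin cells and 0 were higher in host cells. It read 10.55, 9.10 and 9.48 against 7.08, 7.20 and 7.66 (2.40 ± 0.55, adjusted p = 0.042). Its call was lost in 14 of 21 alternatives, among them no filter, a repeated quantile normalization, median centring, and leaving out any 1 host array, the graft-origin array of graft 1 or of graft 3, or any 1 graft. The list median was 1.01, with 3.33 for Ccl12 (adjusted p = 0.088) and 1.87 for Il1b (adjusted p = 0.22), and 0.12 for Tnf. Of the 18 genes 17 were above 0, and 10 had an unadjusted p under 0.05 in limma, all higher in graft-origin cells. Over all 14325 genes, 388 had such a p in that direction. Cd86, the costimulator that binds CD28 on T cells, read 9.01, 7.85 and 10.46 against 6.08, 6.18 and 6.34 (2.91 ± 0.58, at least 1.68, adjusted p = 0.014). The adjusted p was 0.062 with the graft as a fixed block in the fit of all arrays, and the call was lost in 9 of 21 alternatives, among them leaving out the host array of graft 1 or the graft-origin array of graft 1 or of graft 3. Cd86 was the member of 11 costimulation and maturation genes that passed, while Cd80 and Cd40 had differences of -0.20 and 0.08. The median of that list was 0.02, with 6 members above 0 and a lowest difference of -1.58. At an unadjusted p under 0.05 in limma, 1 member was higher in graft-origin and 1 in host cells.

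Other genes among the 12 largest differences lie on no list. Ms4a6b and Ms4a6d, of the MS4A family of membrane proteins, differed by 5.10 ± 1.06 (at least 3.84, adjusted p = 0.018) and 4.31 ± 0.71 (adjusted p = 0.0017). Gpr65, a receptor that senses protons, differed by 4.27 ± 0.53 (adjusted p = 4.1e-05) and Lilrb4a, an inhibitory receptor, by 3.96 ± 0.40 (adjusted p = 2.6e-06). In all 4 genes the graft-origin arrays lay above the host arrays. The lowest graft-origin and highest host values were 9.50 and 6.33 for Ms4a6b and 11.30 and 8.35 for Lilrb4a. Ms4a6b did not pass without the host array of graft 1 or of graft 2 or without the graft-origin array of graft 1 or of graft 3, and neither Ms4a6d nor Hpgd passed without graft 3. Hpgd, which breaks down prostaglandins, differed unevenly (3.72 ± 0.60, adjusted p = 0.0015): the host array of graft 2 read 11.13, against 7.29 and 7.61 in the other host arrays and 12.20 to 12.75 in graft-origin cells.

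**Figure D3:**
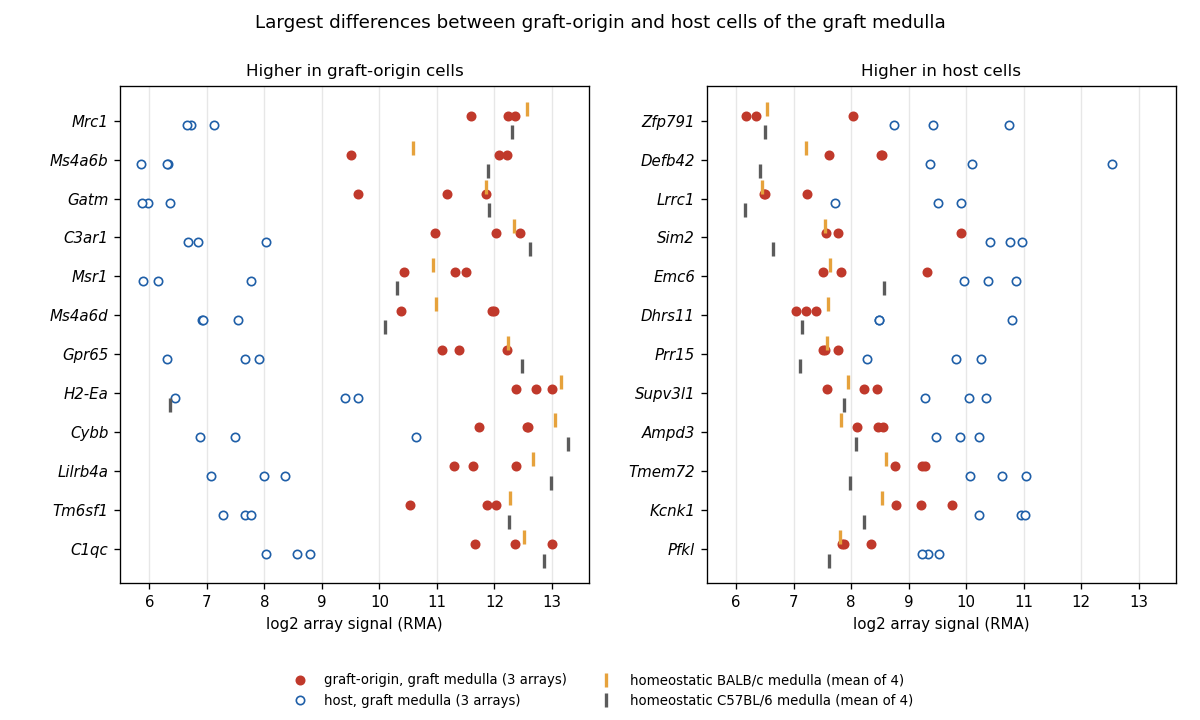
Log2 array signal (x axis) of the 12 genes with the largest differences in each direction: filled circles are the 3 graft-origin arrays, open circles the 3 host arrays, and ticks the homeostatic means of each strain. Mrc1 lies at 11.59 to 12.35 in graft-origin and 6.65 to 7.12 in host cells, and its homeostatic means are 12.56 (BALB/c) and 12.30 (C57BL/6).

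Host cells were higher in 25 genes, with differences of 0.62 to 2.79 in size. Aqp4, a water channel of the collecting duct, read 7.88, 7.34 and 7.26 in graft-origin and 9.13, 8.62 and 8.75 in host cells (-1.34 ± 0.18, adjusted p = 1.5e-04). Pfkl, the liver form of phosphofructokinase, read 7.85, 8.35 and 7.88 against 9.34, 9.53 and 9.23 (-1.34 ± 0.21, adjusted p = 0.0011). In neither gene did the groups overlap. Sim2, a transcription factor, read 7.77, 9.92 and 7.56 against 10.97, 10.42 and 10.77 (-2.30 ± 0.40, adjusted p = 0.0032), so its difference was -0.50 in graft 2 and over 3 log2 units in size in the other grafts. Zfp791, a zinc finger gene, had the largest difference (-2.79 ± 0.46, adjusted p = 0.0017), with -3.25, -0.72 and -4.40 within the grafts. Kcnk1, a potassium channel (-1.47 ± 0.31, adjusted p = 0.018), and Tmem72, a membrane protein of the kidney (-1.48 ± 0.32, adjusted p = 0.024), read 10.22 to 11.02 and 10.06 to 11.05 in host cells. With the graft as a fixed block in the fit of all arrays the adjusted p rose to 0.11 for Kcnk1, 0.076 for Defb42, 0.066 for Emc6, 0.074 for Prr15 and 0.18 for Dhrs11, which no longer passed. Single arrays also ended calls: Kcnk1 and Prr15 did not pass without the host array of graft 1 or of graft 2, Tmem72 and Emc6 without that of graft 2 or of graft 3, and Dhrs11 without that of graft 3. Without the graft-origin array of graft 1 these 5 did not pass, nor without that of graft 3, when Defb42 did not pass either, and Dhrs11 did not pass without that of graft 2. Sim2 did not pass without graft 1 or graft 3, and Zfp791 without graft 3. Sim2, Pfkl, Kcnk1, Prr15 and Emc6 did not pass without the host arrays of grafts 1 and 2.

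Few genes on the lists of kidney cells passed. Of 15 epithelium-wide genes 0 passed in limma (median -0.25, 5 above 0, 1 higher in graft-origin and 2 in host cells at an unadjusted p under 0.05), and of 11 genes of the loop of Henle and distal tubule 0 passed (median -0.10, 1 at an unadjusted p under 0.05). Of 13 collecting duct genes Aqp4 was higher in host cells and the urea transporter Slc14a2 was higher in graft-origin cells. Slc14a2 read 9.74, 10.47 and 10.23 against 9.06, 8.44 and 9.29 (1.22 ± 0.21, adjusted p = 0.0031 in limma). It did not pass without graft 2 or without the host arrays of grafts 1 and 2. Aqp2 had a difference of -0.17 ± 0.39. Of 15 proximal tubule genes Gatm passed, higher in graft-origin cells. The median of that list was -0.05, with 6 members above 0 and a lowest difference of -1.67. Of 15 hypoxia and glycolysis genes Pfkl passed, higher in host cells (list median -0.07, 4 above 0).

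No gene passed in limma on the lists of other leukocytes, with medians of -0.32 over 6 pan dendritic cell, 0.00 over 9 type 1 and 0.73 over 6 type 2 dendritic cell, -0.26 over 7 plasmacytoid dendritic cell, -0.23 over 8 natural killer and cytotoxic, 0.02 over 12 T cell and -0.06 over 6 B cell genes. At an unadjusted p under 0.05 there were 3 type 2 and 1 type 1 dendritic cell genes higher in graft-origin cells, and 1 gene each of the pan dendritic, plasmacytoid and natural killer lists higher in host cells. The natural killer granule gene Nkg7 read 10.10 in the host array of graft 1 and 7.12 to 7.73 in the other 5 arrays. Nor did a gene pass among 14 interferon-gamma response genes (median 0.28), 17 type I interferon response genes (0.12), 11 MHC class I genes (-0.06) and 19 cell cycle genes (0.49), with 1, 0, 2 and 3 at an unadjusted p under 0.05, all higher in graft-origin cells. Of the 19 cell cycle genes 17 were above 0. The SE of single genes was 0.64 for the interferon-induced chemokine Cxcl10 (0.33) and 0.31 for Cd274, the ligand PD-L1 (-0.47), and differences of that size could not be told from 0 with 3 arrays a group.

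**Figure D4:**
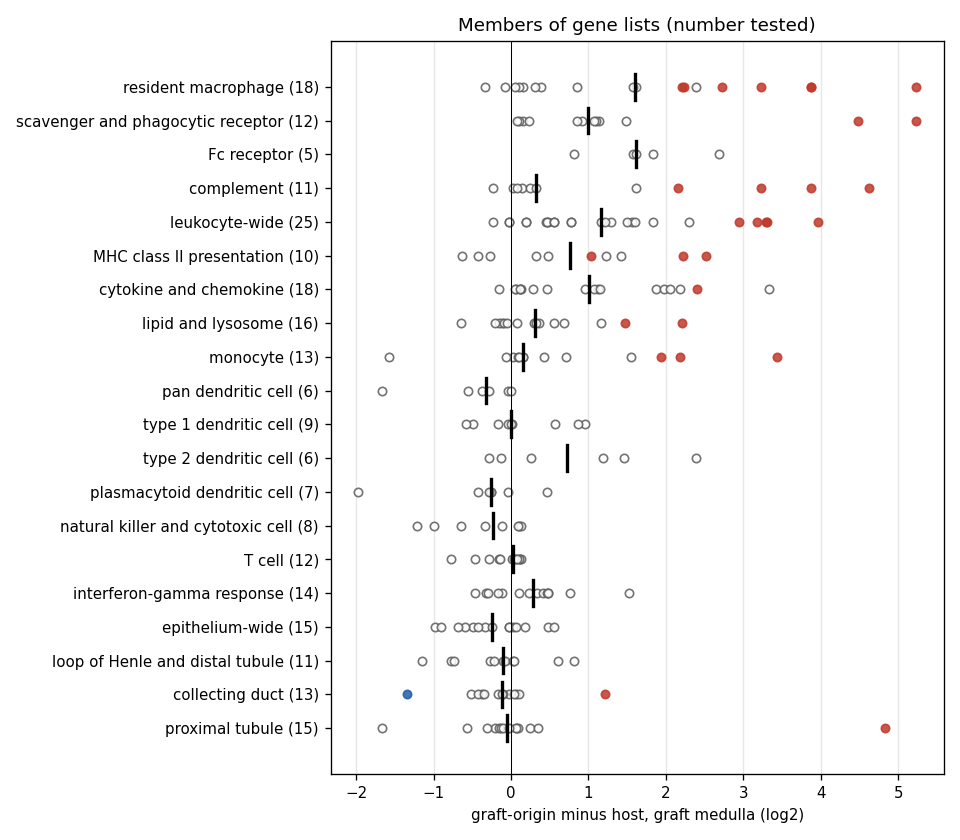
Difference between graft-origin and host cells (x axis, log2) of each tested member of 20 gene lists; filled points passed (red higher in graft-origin, blue higher in host cells), open points did not, and bars are list medians. The resident macrophage list has 7 filled points and a median of 1.60, and the pan dendritic cell list none and -0.32.

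The cortex of the same grafts was compared in the same way, with 53 genes higher in graft-origin cells (0.370% of those tested) and 18 higher in host cells (0.126%). Their sum, 71, was 110 without graft 3. Of the 60 genes higher in graft-origin cells in medulla, 23 (38.3%) were also higher in cortex, 0 were higher in host cells there, and the median in cortex was 1.58. C3ar1 (5.05 ± 0.31), C1qc (5.02 ± 0.27), Adgre1 (4.16 ± 0.43), Mrc1 (3.63 ± 0.38) and Csf1r (2.81 ± 0.27) all passed there in limma, with adjusted p from 5.2e-11 to 6.4e-06. The resident macrophage list had 7 of 18 members higher in cortex as well. The leukocyte-wide list had 0 in cortex (2 at an unadjusted p under 0.05), with a median of 0.05 against 1.16 in medulla, and leukocyte-wide levels there were 10.09 to 10.88 in graft-origin and 9.28 to 11.18 in host cells. Of the 25 genes higher in host cells in medulla, 0 passed in cortex (1 at an unadjusted p under 0.05), their median there was 0.01, and their range was -0.48 to 0.44.

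The difference of the differences, medulla minus cortex, was tested directly, and 11 genes passed (0.0768%), 6 above (0.0419%) and 5 below 0 (0.0349%). Gatm, which makes the creatine precursor guanidinoacetate and is listed among proximal tubule genes, read 11.18, 9.63 and 11.85 in graft-origin and 6.35, 5.97 and 5.87 in host cells of medulla (4.83 ± 0.33, at least 3.46, adjusted p = 3.6e-09). In cortex its means were 12.34 and 12.15 (0.19 ± 0.33), and in homeostatic medulla 11.86 and 11.90. The host cells of graft medulla alone among these groups read near 6. The regions differed by 4.64 ± 0.47 (at least 3.28, adjusted p = 2.0e-05 in limma). Over 15 proximal tubule genes, Gatm among them, the mean level was 11.33 in both kinds of cells of graft cortex. It was 7.68 in graft-origin and 7.52 in host cells of graft medulla, and 8.08 in BALB/c and 7.96 in C57BL/6 homeostatic medulla. The part of tubule RNA in the regional differences was not tested. Lcp1 differed between regions by 2.92 ± 0.37 (adjusted p = 4.8e-04) and Dab2, an endocytic adaptor, by 2.58 ± 0.40 (adjusted p = 0.0066), with host cells of medulla again lowest: Dab2 read 8.35 to 9.76 there, 11.59 to 12.62 in graft-origin cells and 11.98 on average in host cells of cortex. Pfkl went the other way (-1.79 ± 0.30, adjusted p = 0.014). Btla, Tmem273 and Map3k13 had differences of -0.00, 0.12 and 0.02 in medulla and -2.57, 2.72 and 1.57 in cortex, and Mrpl9 had -0.78 in medulla and 1.10 in cortex. With the graft as a fixed block in the fit of all arrays 5 genes passed this test and with it as a random block 18, and leaving out single arrays or grafts gave 5 (without the graft-origin cortex array of graft 2) to 41 (without graft 3).

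The strain difference in homeostatic medulla, BALB/c minus C57BL/6, ran in both directions among these genes. It passed for 1304 genes (9.10%), 927 higher in BALB/c (6.47%) and 377 in C57BL/6 cells (2.63%), around a median of 0.17 over all genes. With arrays centred on their median the split was 309 and 437. Single arrays moved the count from 230 (without BALB/c array 1) to 2343 (without BALB/c array 3). Of the 60 genes higher in graft-origin cells, 4 (6.67%) were higher in BALB/c cells, near the 6.47% of all genes. In C57BL/6 cells 5 were higher, against 2.63% of all genes, and the median over the 60 was -0.23. H2-Ea (6.78) and Ifi202b (3.67 against 3.47 in graft medulla) were among the 4, with Apoe (0.76) and Slc14a2 (0.62). Ifi202b lay below the 40th percentile in the host arrays (at least 1.52 in graft medulla), and did not pass there without the graft-origin array of graft 1. The 5 were the small RNA Scarna17 (-3.84), C5ar1 (-2.94), Itgam (-1.86), Ms4a7 (-1.58) and H2-Eb1 (-0.56), whose strain difference ran against the difference in the graft. In graft medulla Ms4a7 (at least 1.06) did not pass when any 1 of the 3 grafts was left out, and the call of Scarna17 was lost in 10 of 21 alternatives. For Mrc1 (0.26), C3ar1 (-0.29), C1qc (-0.36), Adgre1 (-0.56) and Gatm (-0.04) it did not pass. Of the 25 genes higher in host cells, 0 were higher in C57BL/6 and 2, Map2 (0.50) and Epb41l4a (0.85), were higher in BALB/c cells, with a median of 0.34. Over all genes the shares were 2.63% and 6.47%. The call of Epb41l4a in graft medulla was lost in 12 of 20 alternatives.

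**Figure D5:**
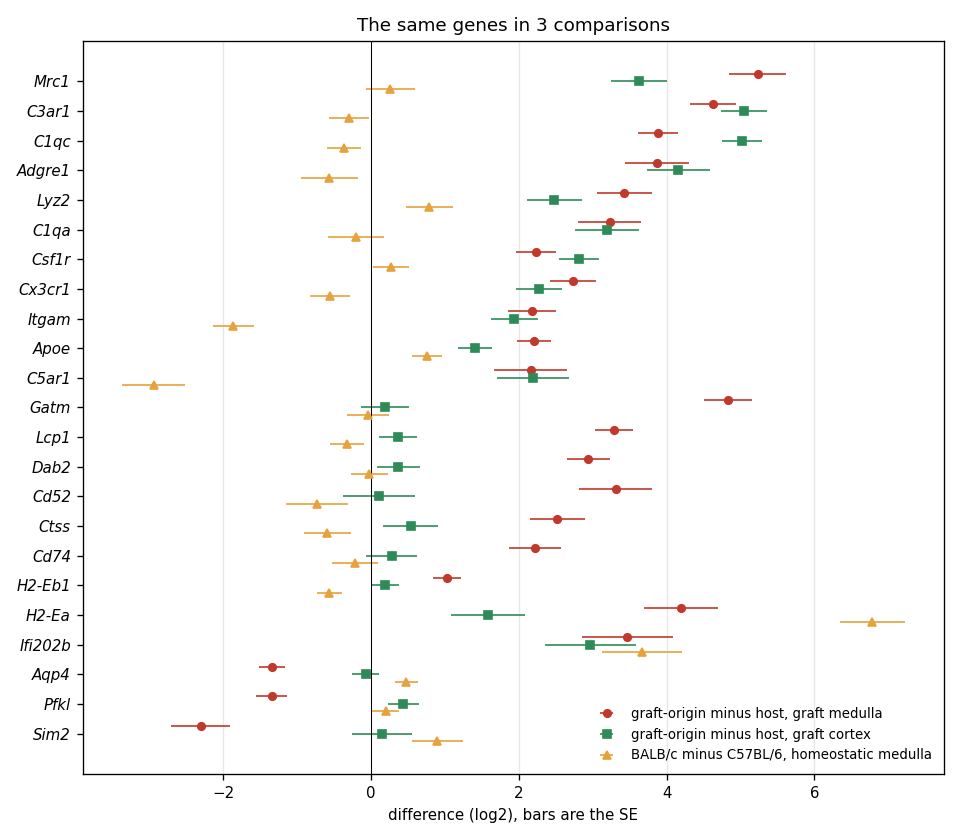
Difference (x axis, log2, bars are the SE) of 23 genes in 3 comparisons: graft-origin minus host in graft medulla (circles) and graft cortex (squares), and BALB/c minus C57BL/6 in homeostatic medulla (triangles). C1qc lies at 3.88, 5.02 and -0.36, Gatm at 4.83, 0.19 and -0.04, and Ifi202b at 3.47, 2.97 and 3.67.

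The difference in graft medulla beyond the strain difference, an interaction of the 4 medullary groups that shares its graft arrays with the main comparison, passed for 163 genes (1.14%), 108 above (0.754%) and 55 below 0 (0.384%), around a median of -0.19. The count was 90 without the graft-origin array of graft 3, 104 without graft 3, and 104 and 99 without C57BL/6 arrays 1 and 4. It was 4.96 ± 0.50 for Mrc1 (at least 4.37, adjusted p = 3.4e-06), 4.91 for C3ar1 (adjusted p = 2.5e-07) and 5.10 ± 0.65 for C5ar1 (at least 4.35, adjusted p = 1.1e-04). For Ifi202b it was -0.20 (adjusted p = 0.92), and for H2-Ea -2.58 (adjusted p = 0.059). The lowest values were -3.24 ± 0.62 for Defb42, a defensin gene, and -3.21 ± 0.53 for Sim2. This contrast takes the strain difference to be the same in healthy kidneys and grafts, which was not tested.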

How the data were processed

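Gene expression was measured on 28 Affymetrix arrays from sorted kidney cells; RNA was amplified with a NuGEN kit, per the labels' protocols. Per the submitters' processing notes, the authors made the deposited log2 array signals with RMA (background correction, quantile normalization, probe summary) and oligo. Versions, array batches and scan dates are not stated in the sources used here. No further normalization was applied. Precision is limited by the number of arrays, and amplification can distort levels. The platform table gives 1 gene symbol for 20646 of 22549 probesets, which were used; 551 with several and 1352 with none were left out. Of 19272 genes, the brightest probeset was kept where a gene had several (810 genes). A gene was tested when at least 3 of the 28 arrays had it above their 40th percentile, which left 14325.

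The comparisons used limma 3.58.1 (R 4.3.3) with a mean for each group, all 28 arrays in the fit (residual degrees of freedom 20), eBayes, 2-sided tests and Benjamini-Hochberg adjustment over the genes tested, passing at an adjusted p under 0.05. The script was tested on simulated data. Nothing in the labels but the mouse numbers and the words "biological rep" in the titles says that replicates are separate animals. The p-values measure the spread within groups pooled over all 28 arrays.

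Graft-origin and host arrays are paired by mouse number in the labels. Residuals of same-graft arrays correlated at 0.055, 0.277 and 0.181, other pairs at -0.206 to 0.005, and 6 of 6 arrays correlated best with their own number. Residuals from the mean of a group of 3 arrays sum to 0, so a positive correlation within grafts pushes other pairs below 0. The contrast between same-graft and other pairs is therefore in part arithmetic. The main fit has no block, and the graft as a fixed or random block was an alternative. Values with the fixed block over all arrays stand beside genes of graft medulla whose call they change. Cacng7, Epb41l4a and Scarna17 did not pass with that block either, and their blocked values are not given.

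Eligible for naming were the 12 highest and 12 lowest differences with no overlap (leaving out predicted genes, pseudogenes, small RNAs and olfactory or vomeronasal receptors), up to 4 passing members of each list by adjusted p, the sort, strain and sex-linked genes, and the 4 highest and lowest of each interaction. Csf1r, Fyb, Cd72, Ms4a7, Cacng7, Hpgd, Scarna17, Map2, Epb41l4a, Abhd4, Kctd10, Umod, 5 strain-separating genes and the list members that did not pass were named outside this rule, after their values were seen. The comparison, its members, the 39 gene lists and the motifs were chosen with earlier results of these data known. The sex-linked list gave no result: Xist was too dim to be tested (6.14 to 6.79 in the 6 arrays). Nnt and Gbp2b, also taken as strain checks, had homeostatic differences of 0.43 and -0.07 that did not pass. Further lists with 0 genes passing in limma were neutrophil, erythroid, fibroblast and pericyte (0 at an unadjusted p under 0.05), platelet, endothelium, immediate early, tubular injury (1 each) and pattern recognition genes (4). Ctsz and Apoe passed of 16 lipid and lysosome genes, Cx3cr1 of 11 chemokine receptors and Slc14a2 of 7 osmotic stress genes.

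The limits against the 40th percentile were added after values were seen. Promoter sequences are RefSeq windows of GRCm38.p6. Alternatives were other filters, a repeated quantile normalization, median centring, a variance trend, array weights, the mean of probesets, blocks, the compared groups fitted alone and single arrays or grafts left out.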

Additional observations from a re-analysis of the deposited data

Results flagged for a closer look

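Levels that stand apart within a group of 4 arrays were found in 3 of 50 groups checked, and chance marks about 1 in 20. All 3 were in homeostatic C57BL/6 medulla: H2-Ab1 had an array at 13.14 where the others were at 13.27 to 13.28, Cd74 an array at 12.89 where the others were at 12.85, and C5ar1 an array at 10.98 where the others were at 11.62 to 11.64. Groups of 3 were not checked.

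The difference between graft-origin and host cells differed between medulla and cortex, by an interaction contrast in limma, for Gatm (4.64 ± 0.47, at least 3.28 by the 40th percentile, adjusted p = 2.0e-05), Lcp1 (2.92), Dab2 (2.58), Btla (2.57, adjusted p = 0.047), Pfkl (-1.79), Map3k13 (-1.56, adjusted p = 0.015), Mrpl9 (-1.87, adjusted p = 0.016) and Tmem273 (-2.61, adjusted p = 0.047). Tmem273 read 9.70 on average in graft-origin and 6.98 in host cells of cortex, and 6.55 to 8.09 and 6.85 to 7.25 in medulla.

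It also differed from the strain difference in homeostatic medulla for Ms4a6b (6.39 ± 1.40, at least 5.14, adjusted p = 0.022), Milr1 (5.24 ± 1.16, adjusted p = 0.024), C5ar1 (5.10), Mrc1 (4.96), Zfp791 (-2.82, adjusted p = 0.02), Acaa2 (-2.92, adjusted p = 0.021), Sim2 (-3.21) and Defb42 (-3.24). Milr1, a receptor of mast and myeloid cells, did not pass in graft medulla alone (2.67 ± 0.88, adjusted p = 0.35), nor did Acaa2, an enzyme of fatty acid oxidation (-1.25 ± 0.48, adjusted p = 0.51). Their strain differences were -2.57 and 1.67.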

How the results depend on the processing

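None of the 45 named genes that passed reversed in the alternatives run for it (21, or 20 for 9 genes that the strict filter removed), and 18 lost their call in no other than the fits of the 6 arrays alone. Fitted alone, 44 lost it, and with the replicate block on those arrays 45; with the block over all arrays 7 did, and with a random block 0. The replicate block gave 66 (fixed, all arrays), 100 (random) and 0 genes (fixed, 6 arrays) in medulla. Fitted alone, the counts were 1 in medulla, 4 in cortex, 1 for the regional interaction, 96 beyond strain and 110 for strain, and the fixed block on the arrays compared gave 0 in cortex and 0 for the regional interaction (5 over all arrays, 18 as a random block). In these 2 fits the macrophage list had 1 and 0 members passing, and the leukocyte-wide, MHC class II and complement lists 0. Array weights gave 221 genes in medulla, 212 in cortex, 61 for the regional interaction and 349 beyond strain. The strict filter gave 43 in cortex, 7 for the regional interaction and 419 for strain; no filter gave 3485 for strain, a repeated quantile normalization 43 in cortex and 854 for strain, and centring 746 for strain. Leaving out single arrays or grafts gave 50 to 134 genes in medulla, 52 to 110 in cortex, 5 to 35 (single arrays; 19 and 41 without grafts 2 and 3) for the regional interaction, 90 to 201 beyond strain (104 without graft 3) and 230 to 2343 for strain, and 2 to 8 leukocyte-wide and 2 to 5 MHC class II members. Without the host arrays of grafts 1 and 2 (an alternative chosen after seeing the data) 143 genes and 8 leukocyte-wide members passed, and 19 named genes lost their call. The cause of these changes was not tested. With 3 arrays a group, a gene that did not pass is not shown to be equal.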
